A study of Mus musculus with 19 samples.

Results

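Broad SOX3 peaks are the ChIP-seq peaks of replicate 1 that were 3000 bp or wider and that overlapped a peak of replicate 2 by 1 bp or more. They numbered 1980 of the 58351 peaks in the replicate 1 list (3.39%) and held 9.09 Mb of the 62.9 Mb under all replicate 1 peaks (14.5%). The members were selected on measured values, the width of the replicate 1 peak and its overlap with replicate 2, so their widths and their presence in both lists are a description and not a result. They were set beside 10276 narrower promoter peaks, meaning peaks under 3 kb that overlapped replicate 2 and had a transcription start site (TSS) within 2 kb.

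SOX3 occupancy was mapped by chromatin immunoprecipitation (ChIP) in mouse testis at postnatal day 7, with 2 replicates of ChIP-seq and 2 of ChIP-nexus, a variant that trims the precipitated DNA with an exonuclease. The 2 ChIP-seq lists were of 1 condition, immature testis of males of C57BL/6J background with no treatment labelled, precipitated with the SOX3 antibodies sc-101155 and AB5772 and compared with input chromatin, so the comparisons below are between kinds of region and not between treatments. By the study's methods the tissue was seminiferous tubules pooled from several mice, in which spermatogonia stand beside Sertoli cells and other somatic cells may remain, so a peak cannot be traced to a cell type. Peak lists hold no expression values, so the labelled tissue could not be checked against its markers. Of 19 labelled samples in the series, the 4 SOX3 libraries came with processed files. The 2 replicates are separate libraries, and nothing in the labels says that they came from separate animals, so the spread between them may be technical.

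SOX3 is a transcription factor of the SOXB1 group, which binds DNA through a high-mobility-group domain and is found in undifferentiated spermatogonia. Most factors give a ChIP-seq peak little wider than the sonicated fragments, so a peak of several kilobases marks a stretch in which enrichment was continuous or in which neighbouring summits were joined by the caller. Broad enrichment is best known from histone marks and RNA polymerase at highly expressed genes and at genes of cell identity. CpG islands are stretches that escaped the loss of CpG seen in the rest of a mammalian genome, and most housekeeping promoters have one. The CpG ratio used here is the number of CpG dinucleotides observed over that expected from the C and G content, and an island was a run of more than 200 bp with a GC content of at least 50% and a ratio above 0.6.

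Sequence windows of 200 bases, read 5′ to 3′ on the plus strand of mm10 (GRCm38), show how the base composition varied under broad peaks. CpG dinucleotides are in capitals, and none of the windows touched an exon of a curated RefSeq transcript. The first window is the most CpG-rich exon-free stretch of the widest broad peak (chr10:80148687-80148886), in an intron of Midn, 514 bp beyond its nearest start site, with 29 CpGs and a ratio of 0.967. The window at the centre of the same peak (chr10:80144171-80144370), in an intron of Atp5d, held 5 CpGs. Both stretches lay under peaks of both replicates.
Midn window: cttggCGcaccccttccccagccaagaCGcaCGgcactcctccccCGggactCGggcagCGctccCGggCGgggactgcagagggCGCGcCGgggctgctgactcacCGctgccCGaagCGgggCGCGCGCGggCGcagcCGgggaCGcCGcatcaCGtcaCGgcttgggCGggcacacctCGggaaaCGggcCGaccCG
Atp5d window: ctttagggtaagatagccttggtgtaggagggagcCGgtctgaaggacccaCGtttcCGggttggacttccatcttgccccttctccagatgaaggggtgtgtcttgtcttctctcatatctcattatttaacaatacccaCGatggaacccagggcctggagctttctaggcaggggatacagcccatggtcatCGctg
Next is the most CpG-rich exon-free stretch of the broad peak over Jund (chr8:70696600-70696799), upstream of its start site and outside the computed islands, with 20 CpGs and a ratio of 0.709. Below it is the centre of an intronic broad peak of Actn4 (chr7:28921048-28921247), with 2 CpGs and a ratio of 0.171. That peak was among the 5 widest away from start sites. Its whole-peak ratio of 0.163 was under the lower quartile of 0.212 of broad peaks away from start sites. The last is the 200 bases just upstream of Rnu1a1 (chr11:87422667-87422866), a U1 small nuclear RNA gene inside an intron of Tex14, in a broad peak that also overlapped a ChIP-nexus peak, with 4 CpGs and a GC content of 37.5%.
Jund window: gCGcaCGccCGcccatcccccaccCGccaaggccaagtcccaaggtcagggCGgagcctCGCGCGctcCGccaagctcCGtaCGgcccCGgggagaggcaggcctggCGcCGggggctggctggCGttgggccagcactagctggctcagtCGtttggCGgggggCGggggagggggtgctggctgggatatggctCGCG
Actn4 window: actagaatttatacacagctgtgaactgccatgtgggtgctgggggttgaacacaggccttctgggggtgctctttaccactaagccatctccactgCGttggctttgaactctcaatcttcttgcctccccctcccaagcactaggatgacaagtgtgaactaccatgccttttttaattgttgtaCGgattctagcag
Rnu1a1 window: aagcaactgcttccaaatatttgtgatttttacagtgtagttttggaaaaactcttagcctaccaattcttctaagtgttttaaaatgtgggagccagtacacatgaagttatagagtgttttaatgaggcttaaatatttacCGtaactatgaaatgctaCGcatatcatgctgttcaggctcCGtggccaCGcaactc

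Width of the broad peaks had a median of 3875 bp (quartiles 3319 and 4916 bp). There were 472 of 5 kb or more and 62 of 10 kb or more, and the widest measured 35920 bp. Replicate 1 held 2074 peaks of 3 kb or more in all, so 94 had no replicate 2 peak under them. These 94 had a median q score of 65.1, where the q score is a log-scaled false discovery rate of the peak (higher is stronger, and the authors kept scores above 30), and 23 of them lay within 2 kb of a start site. The members just inside the limit were at Zmynd8 (3000 bp), Surf6 (3002 bp) and the histone gene H2aw (3004 bp), with replicate 1 q scores of 91.2, 218 and 739. Just outside it were peaks at Khsrp (2999 bp), Itpr1 (2999 bp) and Smpd5 (2998 bp), with scores of 479, 303 and 113. The limit thus fell inside a continuous range of widths and scores.

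**Figure D1:**
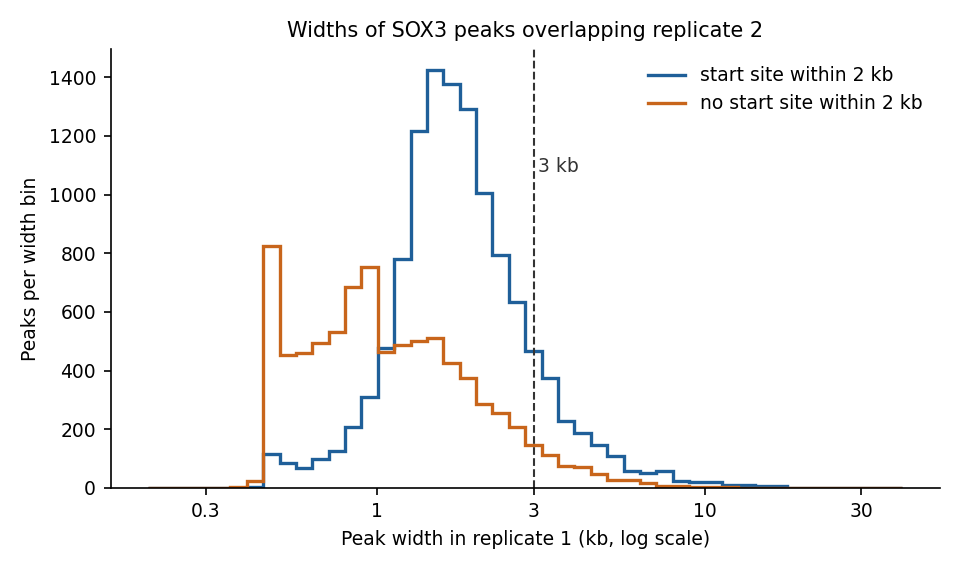
Widths of the replicate 1 peaks that overlapped replicate 2, in kb on a log axis, as the number of peaks in each width bin, for peaks with (blue) and without (orange) a start site within 2 kb. Promoter peaks have their mode between 1 and 2 kb, and the 3 kb limit (dashed) cuts the upper tail of both kinds without a gap.

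Replicate 2 had fewer broad peaks, 542 of 3 kb or more, and all 542 overlapped a peak of replicate 1. In 447 broad peaks (22.6%, exact 95% binomial interval 20.7 to 24.5%) an overlapping replicate 2 peak was itself 3 kb or wider. Replicate 2 covered a median of 57.0% of a broad peak's length (quartiles 40.8 and 72.9%), against 77.5% for narrower promoter peaks. A single replicate 2 peak lay under 1331 broad peaks, 2 lay under 516, 3 under 100, 4 under 23, 5 under 8 and 6 under 2. The median width of the member was higher at each step of that series, from 3576 bp with 1 replicate 2 peak to 12572 bp with 4 and 32513 bp with 6. Many of the widest members were therefore 1 peak in replicate 1 and a row of separate peaks in replicate 2.

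The widest members show this directly. The 35920 bp peak (chr10:80126311-80162230) held the start sites of Cbarp, a regulator of voltage-gated calcium channels, Atp5d, a subunit of mitochondrial ATP synthase, and Midn, which encodes the midnolin protein. Its replicate 1 q score was 458, and its 6 replicate 2 peaks scored between 33.6 and 190. The widest of those 6 measured 18231 bp, ran over Midn and had the highest score. The second widest member (29106 bp, chr17:35138076-35167181) covered Prrc2a, an RNA-binding protein gene, and part of its neighbour Bag6, a chaperone gene. Its 6 replicate 2 peaks scored from 33.8 to 339, and the highest was the 1 that held the Prrc2a start site. After these came a member (23193 bp, chr10:80789960-80813152) that held the start sites of Amh, the anti-Müllerian hormone made by Sertoli cells, and of the divergent pair Plekhj1 and Sf3a2, of which the latter encodes a spliceosome subunit. Its 5 replicate 2 peaks scored from 32.8 to 175. In each of these 3 members the strongest replicate 2 peak held a start site.

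The next 7 by width were at Ech1 and Hnrnpl (21353 bp), Ptbp1 (18273 bp), Ptov1 (17179 bp), Tef (16793 bp), Gabpb2 and Sema6c (16291 bp), Irf3 and Bcl2l12 (16288 bp), and Fasn (16148 bp). Hnrnpl and Ptbp1 encode splicing regulators, Irf3 an interferon regulatory factor, Tef a transcription factor of the clock output, and Fasn fatty acid synthase. Replicate 1 q scores of these 7 ran from 154 at Tef to 945 at Fasn. Replicate 2 scores ran from 66.4 at Tef to 389 at Fasn, so the lowest and the highest were the same members in both lists. The share covered by replicate 2 ran from 22.7% at Tef to 72.2% at Ech1 and Hnrnpl. The Tef member was the only 1 of the 10 widest with no CpG island in it.

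**Figure D2:**
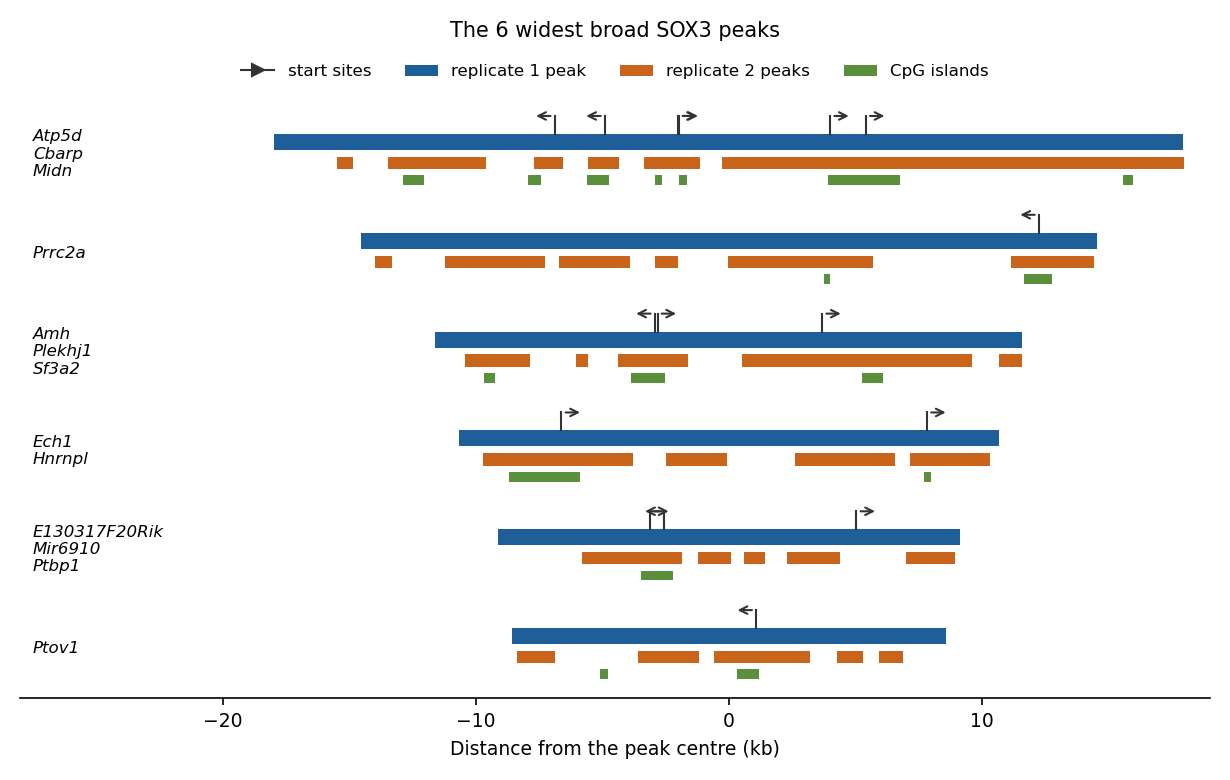
The 6 widest broad peaks drawn to scale around the peak centre (kb), with the replicate 1 peak (blue), the replicate 2 peaks (orange), CpG islands (green) and curated RefSeq start sites (arrows in the direction of transcription). The single replicate 1 peak is met by 4 to 6 replicate 2 peaks, and islands cover a small part of each.

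Genes and start sites. Broad peaks lay mostly at promoters, as 1518 of 1980 (76.7%, 74.7 to 78.5%) had a start site within 2 kb and 1455 (73.5%) had one inside. These intervals cover counting error over peaks and not the spread between libraries. Over all 20092 peaks that overlapped replicate 2, the shares were 58.7 and 54.4%. Over all 58351 replicate 1 peaks they were 28.0 and 22.1%. A longer peak reaches a start site more easily, so the rule itself favours a high share. Of the peaks of 2 to 3 kb that overlapped replicate 2, 2700 had a start site within 2 kb and 836 had none. The counts for broad peaks were 1518 and 462, so a high promoter share was not particular to them. A start site of exactly 1 gene was present in 1061 members (53.6%), start sites of 2 or more genes in 394 (19.9%, 18.2 to 21.7%), and of 3 or more in 53 (2.68%). Among narrower promoter peaks, 14.4% (13.7 to 15.1%) held start sites of 2 or more genes and 0.282% of 3 or more. The narrower peaks were chosen for a start site nearby, so the like figure among the 1518 promoter broad peaks is 26% (23.8 to 28.2%), against 19.4% (17.9 to 20.9%) of narrower promoter peaks of 2 to 3 kb. A peak that is longer can hold more start sites, and per kb the order was the other way, with 0.341 distinct start positions per kb in promoter broad peaks against 0.729 per kb in narrower ones.

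The multi-gene share grew with width inside the broad peaks. It was 16.7% of 1065 members of 3 to 4 kb, 19.8% of 625 of 4 to 6 kb, 25% of 228 of 6 to 10 kb and 56.5% of 62 of 10 kb or more. Divergent pairs, with start sites of 2 genes facing away from each other within 1 kb, were in 13.3% (11.6 to 15.1%) of promoter broad peaks and 10.9% (10.3 to 11.5%) of narrower promoter peaks, and in 14.4% (13.1 to 15.8%) of those of 2 to 3 kb. The member with the most genes (11643 bp) held start sites of 9, among them the ribosomal protein gene Rpl13a, 5 small nucleolar RNA genes (Snord32a, Snord33, Snord34, Snord35a and Snord35b) and Mir150 and Mir5121. It scored 660 in replicate 1 and 322 in replicate 2. The next was at Rps2 (9053 bp, chr17:24715939-24724991) with 6 genes, Ndufb10, Rnf151, Rps2, Snhg9, Snora64 and Snora78, and scores of 785 and 380. Dohh, of the hypusine pathway, shared a member with 4 other genes (298 and 110). The others of the 5 were the member at Eif4a1, Cd68 and Mpdu1 (835 and 374) and a histone cluster with H2ac10, H3c8 and H4c8 (602 and 342).

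Whole genes lay inside 286 members (14.4%), all of them promoter broad peaks (18.8% of these). The share was 2.07% of narrower promoter peaks, 4.07% of those of 2 to 3 kb and 2.48% of all peaks overlapping replicate 2. A wider peak can hold a whole gene more easily, so the rule itself favours this order. In all, 381 genes were inside a broad peak from end to end, of which 235 were protein-coding, 73 microRNA, 40 long noncoding, 22 small nucleolar and 8 small nuclear RNA genes. Coding genes of this kind in members with high q scores included Jund (2118 and 1099 in replicates 1 and 2), the DNA damage histone gene H2ax (1119 and 494), Actb, which encodes cytoplasmic actin (945 and 499), and the stress response factor Atf4 (886 and 395). These 4 were picked after their values were seen. Where a member held the start of a single gene, it covered a median of 18.1% of that gene, and 253 of 1061 (23.8%) covered 50% or more. The median length of such genes was 14630 bp (quartiles 5616 and 37484 bp), against 27458 bp (12166 and 64311 bp) for genes of single-gene narrower peaks. Genes under broad peaks were therefore shorter at the median, with overlapping quartile ranges.

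Measured from the gene's start site furthest upstream in the peak, cover was longer on the transcribed side. Where a gene had several start sites in a peak, the stretch between them thus counted as downstream. This choice itself favours the downstream side, and how far it accounts for the difference was not tested. In the 1061 single-gene members, replicate 1 peaks reached a median of 1532 bp upstream and 2324 bp downstream, and the downstream side was the longer in 720 (67.9%). Replicate 2 peaks held the same start site in 963 of these and reached 871 bp upstream and 1220 bp downstream, with the downstream side longer in 65.8%. Narrower peaks had the same order of sides, 663 and 890 bp in replicate 1, with the downstream side longer in 72.8%. Further out, start sites were counted as covered by any peak, the member itself included. A narrower peak that holds the start site is under 3 kb and cannot reach 5 kb, so the width rule itself favours broad peaks there. At 5 kb downstream, 31.0% of the single-gene members' start sites were under some replicate 1 peak and 14.1% under a replicate 2 peak, against 7.22% and 3.69% for narrower peaks. At 5 kb upstream the figures were 19.4% and 9.14% against 7.54% and 4.17%. The replicates had the same order at each of these distances.

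**Figure D3:**
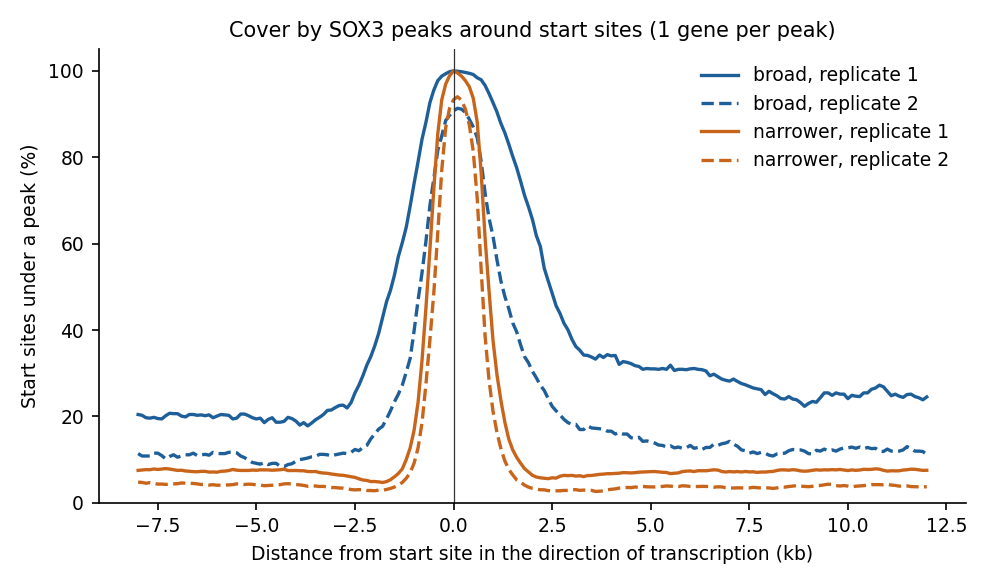
Share of start sites (%) that were under any SOX3 peak, by distance from the start site in the direction of transcription (kb), for 1061 single-gene broad peaks (blue) and 8003 single-gene narrower peaks (orange), in replicate 1 (solid) and replicate 2 (dashed). The broad curves are wider downstream than upstream and stay above the narrower ones at both ends of the range. Distance is from the gene's start site furthest upstream in the peak, which itself favours the downstream side. All curves include the peak at the start site itself, whose width was set by the rule.

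CpG content. The CpG ratio of a whole broad peak had a median of 0.446 (95% interval of the median 0.431 to 0.460, quartiles 0.308 and 0.595), against 0.664 (quartiles 0.539 and 0.770) for narrower promoter peaks. Broad peaks at promoters had a median of 0.496 and those away from start sites 0.255. Around the nearest start site the difference was small, as the 1 kb window there had a median ratio of 0.740 in promoter broad peaks and 0.744 in narrower peaks, with quartiles of 0.574 and 0.859 against 0.614 and 0.851. Outside the peaks, in windows 1 to 2 kb beyond each edge, the medians were 0.216 and 0.197. Promoter peaks of 2 to 3 kb, the nearest in width, had 0.798 at the start site (95% interval of the median 0.790 to 0.807, against 0.728 to 0.750 for promoter broad peaks) and 0.652 over the whole peak. Against that class the ratio of broad peaks was lower at the start site as well as over the whole peak.

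Island cover was set out in the same way. At least 1 island was in 88.8% (87.1 to 90.3%) of promoter broad peaks and 82.7% (81.9 to 83.4%) of narrower ones, but in 90.6% (89.4 to 91.7%) of narrower ones of 2 to 3 kb. The shares with 2 or more islands were 21.1, 1.45 and 3.93%. The island bases per promoter broad peak had a median of 865 bp, against 554 bp for narrower promoter peaks and 838 bp for those of 2 to 3 kb. Per kb of peak, islands took 222 bp in promoter broad peaks and 358 bp in peaks of 2 to 3 kb. Of the 308 islands of 2 kb or more in the genome, 157 (51.0%) overlapped a broad peak, against 17.3% of 2303 islands of 1 to 2 kb and 9.22% of 7335 under 500 bp. A long island needs a wide peak to be covered, so the rule itself favours this order. GC content was close in both kinds, with medians of 55.9% in promoter broad peaks and 56.3% in narrower ones.

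Within the members, wider peaks had lower ratios. The median was 0.499 in members of 3 to 4 kb, 0.409 in those of 4 to 6 kb, 0.398 in those of 6 to 10 kb and 0.360 in those of 10 kb or more. The median of the central 1 kb went from 0.565 to 0.278, in windows that need not hold a start site. Across the 1980 members, width and CpG ratio had a Spearman rho of −0.21 and a Pearson r of −0.18. These and the correlations below describe peaks of the same 2 libraries that share depth and base composition, and have no p-value.

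Peak strength. The q score of broad peaks had a median of 201 in replicate 1 (quartiles 109 and 327) and 88.2 in replicate 2 (56.8 and 137, taking the highest overlapping peak). Narrower promoter peaks had medians of 176 (96.6 and 278) and 73.8 (48.2 and 112). The ratio of medians was 1.14 in replicate 1 and 1.20 in replicate 2 (mean 1.17 ± 0.0361, SD, n = 2), and the quartile ranges overlapped over most of their length. In replicate 2 the highest of several peaks was taken more often under broad peaks; with the longest overlapping peak in its place the ratio was 1.16. With promoter peaks on both sides, the ratios were 1.40 and 1.38. Against promoter peaks of 2 to 3 kb, they were 1.03 and 1.00 (mean 1.01 ± 0.0175, SD, n = 2). The medians of promoter peaks rose from 32.5 under 500 bp to 240 at 2 to 3 kb in replicate 1 and then stood at 246 at 3 kb or more, and in replicate 2 they were 37.0, 102 and 102. The class of 3 kb or more pools unequal widths. Over all broad peaks the replicate 1 medians were 190 at 3 to 4 kb, 195 at 4 to 6 kb, 258 at 6 to 10 kb and 342 at 10 kb or more, and those of replicate 2 were 83.3, 86.4, 104.6 and 142. The share at a promoter in these classes was 76.5, 74.2, 80.3 and 90.3%.

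**Figure D4:**
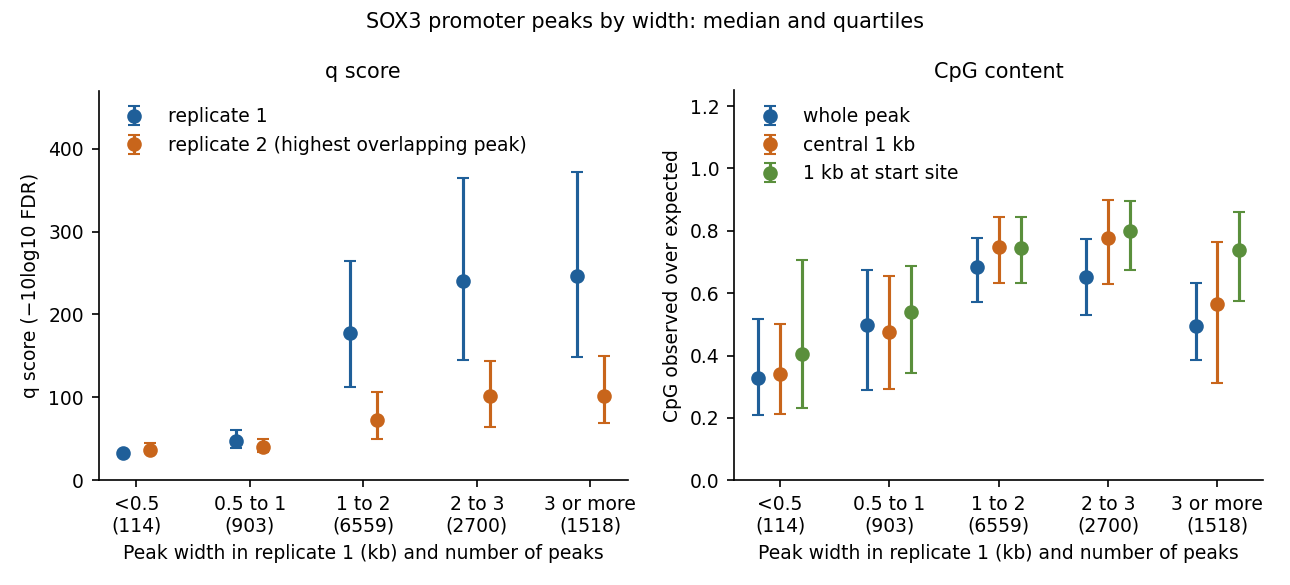
Promoter peaks overlapping replicate 2, in 5 classes of replicate 1 width (kb, with the number of peaks), shown as medians (points) and quartiles (bars). Left, the q score in replicate 1 (blue) and of the highest overlapping replicate 2 peak (orange), whose medians are close in the 2 widest classes, the last of which pools all widths of 3 kb or more. Right, the CpG ratio of the whole peak (blue), its central 1 kb (orange) and 1 kb at the nearest start site (green), of which the last stays high in the broadest class.

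The log2 ratio of ChIP over input had a median of 3.94 in replicate 1 and 2.83 in replicate 2, where it was that of the longest overlapping peak. The values for narrower promoter peaks were 3.71 and 2.64. The replicate 2 value was the lower of the pair in 1842 of 1980 members, and the replicate 2 q score in 1945. Scores of the replicates were closely related across members (Spearman rho 0.89, Pearson r 0.92), log2 ratios less so (0.40 and 0.42), and width was weakly related to the q score in both lists (rho 0.12 in each). The score was higher in members that held more genes. Median scores were 91.2 and 53.2 in the 525 members with no start site inside, 236 and 98.8 with 1 gene, 287 and 118 with 2, and 446 and 190 with 3 or more. The CpG ratio did not follow that series beyond its first step, with medians of 0.256, 0.501, 0.511 and 0.478. Median widths in the same classes were 3873, 3771, 4005 and 6049 bp. Members with 3 or more genes were thus also the widest, and gene number and width were not separated.

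The 5 members with the highest replicate 1 scores were not among the 10 widest. They were at Eapp, an E2F-associated protein gene (5592 bp, scores 2167 and 1560), at Jund, an AP-1 subunit gene (10292 bp, 2118 and 1099), at Gtf3c6 and Rnu3a, a transcription factor IIIC subunit gene and a U3 small nucleolar RNA gene (3088 bp, 2087 and 1341), beside Pxn and Sirt4 but outside their curated transcripts (6674 bp, 2015 and 1194), and at Polr2a, the gene of the largest RNA polymerase II subunit (3670 bp, 1950 and 1193). The Eapp and Pxn members also held small nuclear RNA genes that RefSeq lists only as predicted models, Gm22513 of the U1 class at the former and Gm24265 and Gm24407 of the U4 class at the latter. Reads that fit several copies of such genes were placed at random by the authors' aligner, so scores at repeated small RNA genes are uncertain.

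Members away from start sites numbered 462. Of these, 355 lay in a gene body and 107 outside curated genes, and the median distance to a start site was 8913 bp (quartiles 4859 and 19039 bp). Their width was like that of promoter broad peaks (medians 3867 and 3879 bp), while the medians of their scores were 91.2 and 53.2 in replicates 1 and 2, against 246 and 102. A score above 60 in replicate 2 was found in 37.0% of them, against 82.3% of promoter broad peaks. An island was in 24.7%. The widest were in Ltbp3 (13181 bp, scores 110 and 56.1), Cxxc5 (11608 bp, 144 and 69.3), Sema7a (11364 bp, 100.2 and 55.6), Actn4 (10693 bp, 91.2 and 61.5) and at the end of Slc7a5 (10251 bp, 126 and 72.1). Ltbp3 encodes a binding protein of latent TGF-β, Cxxc5 a CXXC zinc finger protein, Sema7a a semaphorin, Actn4 an actin crosslinker and Slc7a5 an amino acid transporter. The Cxxc5, Sema7a, Actn4 and Slc7a5 members held no island and had CpG ratios from 0.163 to 0.224. All 5 had replicate 2 scores under 75, below the median of 88.2 of all broad peaks.

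Some genes held several broad peaks. Of 2373 curated genes overlapped by a member, 294 were met by 2 or more, 41 by 3 or more and 12 by 4 or more. Nfix, of the nuclear factor I family, held 6, with scores from 61.9 to 282 in replicate 1 and from 42.1 to 134 in replicate 2. Its relative Nfic, the retinoic acid receptor gene Rara, the cytolinker gene Plec, the semaphorin receptor gene Plxna1 and Septin9 held 5 each. The histone H3K27 demethylase gene Kdm6b, 21860 bp long, was overlapped by 4, of which the outer ones reached past its ends, with scores from 119 to 716 in replicate 1 and from 37.7 to 275 in replicate 2. These are genes picked by their number of broad peaks, after that number was seen.

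Along the genome, broad peaks were unevenly spread. Of 2737 windows of 1 Mb, 626 held at least 1 broad peak, and 40 held 10 or more, with 652 of the 1980 members (32.9%) between them. Those 40 windows held a median of 47 curated genes, against 6 over all windows. Most broad peaks lay at start sites, so windows picked for many of them are bound to hold many genes. Narrower promoter peaks were not counted by window, so the gene number is no result about broad peaks. The fullest were on chromosome 10 at 80 to 81 Mb (43 members, 57 genes), with Midn and Amh in it, and on chromosome 11 at 69 to 70 Mb (37 members, 70 genes), with Polr2a, Kdm6b and Eif4a1. For every 100 narrower promoter peaks there were 30.6 broad peaks on chromosome 17, 30.2 on chromosome 11 and 29.8 on chromosome 10, but 2.97 on the X chromosome (8 broad, 269 narrower) and 10.2 on chromosome 13. Among those 8 on the X chromosome, none was met by a replicate 2 peak of 3 kb or more.

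Gene groups. A start site inside a broad peak was found for 1901 of 26180 curated RefSeq genes (7.26%), and 13402 (51.2%) had any promoter peak that overlapped replicate 2. Of those 13402 genes, the 1901 make up 14.2%, and each list below is given as a share of its genes, to be read against 7.26%, and as a share of its genes with a shared promoter peak, to be read against 14.2%. The lists were chosen with earlier results of these data known, and their shares have no test.

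Immediate early genes, whose transcription is switched on within minutes of a stimulus, had the largest share of the 15 lists, 15 of 18 (83.3%), and all 18 had a shared promoter peak. Their broad peaks ran from 3194 to 10292 bp, with scores from 69.8 to 2118 in replicate 1 and from 39.2 to 1099 in replicate 2. The widest were at Jund (10292 bp), the mRNA decay factor gene Zfp36 (9971 bp, scores 424 and 90.9), Egr1 (7506 bp, 433 and 224) and Junb (7123 bp, 440 and 217). The replicate 2 peak under Egr1 measured 6989 bp, so this member was broad in both lists, while the widest under Zfp36 measured 2526 bp.

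Chromatin and RNA processing genes were also above the share of all genes. NuRD and Polycomb complex genes had 13 of 36 (36.1%), all 36 having a shared promoter peak. Among them were the NuRD remodeller Chd3 (7931 bp, scores 254 and 135), Pcgf2, a subunit of Polycomb complex PRC1 (6856 bp, 341 and 129), and the remodeller Chd4 (6607 bp, 320 and 121). SR and hnRNP splicing factor genes had 12 of 31 (38.7%), or 40% of those with a shared promoter peak. Apart from Hnrnpl (21353 bp), these were near the limit, with a median of 3198 bp, as at Srsf10 (3840 bp, 660 and 305), Hnrnpul1 (3789 bp, 284 and 121) and Hnrnpu (3615 bp, 621 and 241).

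Histone genes had 36 of 104 (34.6%) and ribosomal protein genes 21 of 88 (23.9%), or 47.4% and 24.7% of those with a shared promoter peak. Histone genes stand close together, so 1 member often held several, as with H2ac10, H3c8 and H4c8 (5843 bp), and the linker histone gene H1f0 had the widest (7323 bp, 703 and 217). Their near-identical copies make counts at single histone genes uncertain. The widest member with a ribosomal protein gene was at Rpl18 (15540 bp, 597 and 190). Of 23 snoRNA host genes, 5 were in broad peaks (22.7% of those with a shared promoter peak), at Eif4a1, Snhg9, Tnpo2 (7580 bp, 422 and 129), Snhg16 (6001 bp, 223 and 154) and Nop56. Cyclin and cyclin-dependent kinase genes had 7 of 51 (13.7%), but 94.1% had a shared promoter peak and 14.6% of these were in broad peaks, close to the 14.2% of all such genes. The widest were at Cdk5 (8209 bp, 258 and 91.5), Ccnd2 (7394 bp, 304 and 141), Ccnd1 (4750 bp, 185 and 61.1) and Cdk6 (4289 bp, 169 and 66.5). All 3 D-type cyclins were among these 7, as Ccnd3 was also in the list.

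Germ cell and somatic genes of the testis were both represented. Factors of undifferentiated spermatogonia had 7 of 28 (25%, or 33.3% of those with a shared promoter peak), namely Bcl6b, Etv5, Foxo1, Pou3f1, Rarg, Uchl1 and Zbtb16. The widest were Bcl6b (5274 bp, scores 122 and 85.7), a target of GDNF signalling, Foxo1 (3863 bp, 435 and 123), a factor needed for stem cell maintenance, Pou3f1 (3519 bp, 124 and 64.0) and Zbtb16 (3303 bp, 127 and 102.0), which encodes PLZF. Markers of Sertoli cells, the somatic cells that nurse the germ cells, had 7 of 14 (50%, or 63.6%), namely Amh, Dhh, Gata4, Inha, Inhbb, Sox9 and Wt1. The widest after Amh were Wt1 (9671 bp, 271 and 98.9), Dhh (7439 bp, 224 and 116) and Inha (5491 bp, 283 and 86.3). For Leydig cells it was 1 of 9, Nr5a1 (6373 bp, 102 and 63.7), and for peritubular and blood cells 2 of 12, Cd68, which shares its peak with Eif4a1, and Myh11 (3283 bp, 148 and 80.1). As shares of genes with a shared promoter peak, these were 1 of 5 and 2 of 5. The cell types of these tubules were not separated before ChIP, and the part of each in these peaks was not tested.

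Developmental transcription factors outside the HOX clusters had 27 of 198 (13.6%, or 29.0% of those with a shared promoter peak), with the widest at Sox8 (11038 bp, 323 and 124), Foxs1 (10489 bp, 149 and 82.7), Klf16 (7507 bp, 330 and 156) and Foxo3 (5636 bp, 359 and 198). Under Sox8 lay 5 replicate 2 peaks, the widest 1843 bp, and under Foxo3 a single one of 5501 bp. The HOX genes had 2 of 39 (5.13%), Hoxb9 (6362 bp, 211 and 58.9) and Hoxd9 (5339 bp, 110 and 53.3), below the share of all genes. Only 10 HOX genes had a shared promoter peak, and 2 of these 10 (20%) is above the 14.2% of all such genes, so the direction turns on the background. Genes of meiotic prophase had 1 of 28, Syce2 of the synaptonemal complex (3246 bp, 155 and 71.8), although 67.9% of them had a shared promoter peak, and 5.26% of these were in broad peaks. Spermatid and sperm genes had 2 of 24, Tssk6 (4257 bp, 296 and 98.8), which shares its peak with Ndufa13, and Odf2 (3325 bp, 261 and 123), which is 8.33% of the list but 28.6% of its 7 genes with a shared promoter peak. By kind of gene, 7.72% of protein-coding, 5.12% of long noncoding and 5.94% of microRNA genes had a start site in a broad peak, and 22 of 126 small nucleolar and 8 of 18 small nuclear RNA genes did.

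**Figure D5:**
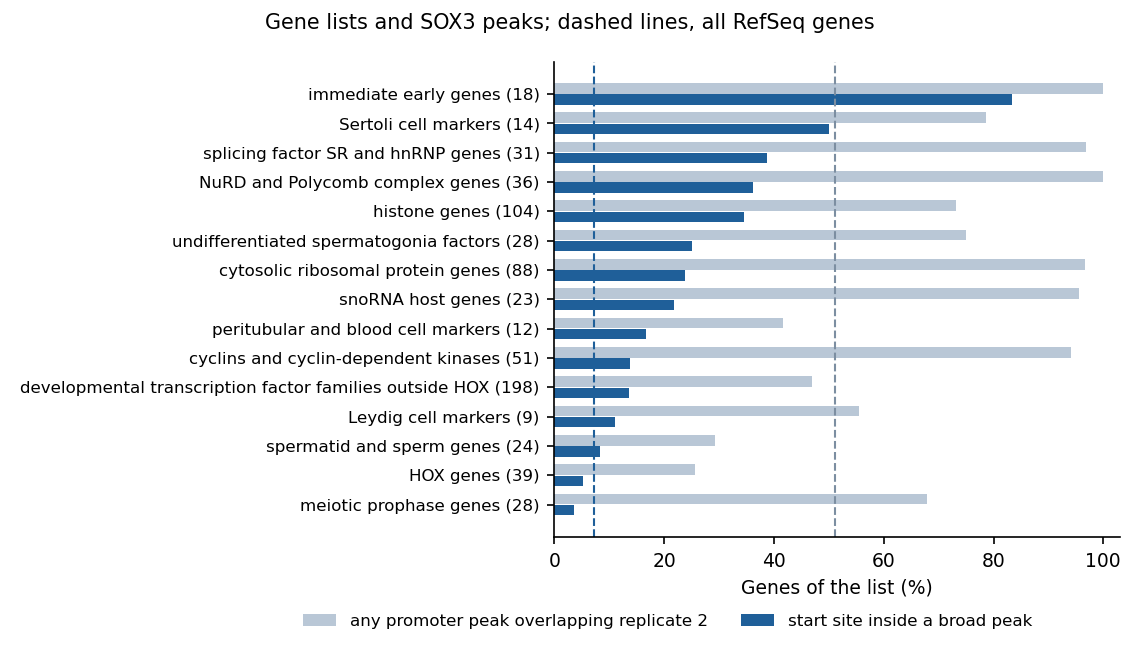
Share of the genes of each list (%, with the number of genes) that had any promoter peak overlapping replicate 2 (grey) and a start site inside a broad peak (blue), with dashed lines for all RefSeq genes at 51.2% and 7.26%. Immediate early genes and Sertoli cell markers have the longest blue bars, while meiotic prophase and HOX genes lie left of the 7.26% line.

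ChIP-nexus and SOX sequences. Of the 1980 broad peaks, 21 (1.06%, 0.658 to 1.62%) overlapped a ChIP-nexus peak of replicate 1, against 14 of 10276 narrower promoter peaks (0.136%), 9 of the 2700 of 2 to 3 kb (0.333%) and 50 of all 58351 replicate 1 peaks (0.0857%). None of either kind overlapped a ChIP-nexus peak of replicate 2, which for broad peaks allows a share of up to 0.186%, the upper bound of the exact interval. Over all 58351 replicate 1 peaks it was 1, so this count of 0 is no result about broad peaks. By the study's reporting summary, unique reads were a very small part of all reads in both SOX3 ChIP-nexus libraries. The overlap shares rest on these shallow libraries, and their dependence on depth was not tested. The 21 included small nuclear and U3 RNA genes (Rnu1a1, Rnu2-10, Rnu3a, Rnu3b1, Rnu3b3, Rnu3b4 and Rnu5g) and 6 histone clusters, and their replicate 1 q scores ran from 252 to 2167. A member outside the curated RefSeq genes used here (chr17:39842517-39849410) was picked after its values were seen. It had a log2 ratio of 2.32 in replicate 1 and 1.71 in replicate 2 but q scores of 1258 and 737, and an island of 5823 bp in it. Its replicate 1 log2 ratio was under the lower quartile of 3.40 of all members. The study's methods removed blacklisted regions from peaks, and no such filter was applied here. Whether the reads at this member fit several copies in the genome was not tested.

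The SOX core sequences ACAATG and ACAAAG were searched on both strands, and on 1 strand matches of both cannot start at the same base. Broad peaks held 9811 matches, or 1.08 per kb, with 1.05 per kb at promoters and 1.18 per kb away from start sites. Narrower promoter peaks held 0.948 per kb. In windows 1 to 2 kb beyond the peak edges, the figures were 1.31 per kb for broad peaks and 1.52 per kb for narrower ones, so both kinds had fewer matches inside than outside. Both core sequences hold more A and T than C and G. Median GC content was 55.4% in broad and 56.3% in narrower promoter peaks. The match counts were not adjusted for base composition, and its part in the difference was not tested. At least 1 match was in 97.4% of broad peaks and 73.8% of narrower promoter peaks, in windows of unequal length. A match is a description of the letters and not a site of binding.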

How the data were processed

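SOX3 ChIP-seq and ChIP-nexus were measured in postnatal day 7 testis. Per the study's methods, the authors aligned ChIP-seq reads to mm10 with Novoalign, placed multiply mapping reads at random, removed duplicates with Picard and called peaks per replicate against input with USeq at a q score above 30. Headers are absent from these lists, so the columns as deposited were taken from the caller's layout: a p score and a q score (a negative multiple of the log10 of p and of the false discovery rate) and a log2 ratio of ChIP over input. The deposited ChIP-nexus lists give a score, a fold enrichment (ratio), −log10 p and −log10 q from the authors' MACS2 2.1.1 calls; only their positions were used here, and their control and alignment are not given in the sources used here. The lists hold no read counts; read totals that the study gives were not used, and are higher for ChIP-seq replicate 2 than for replicate 1. Joining of neighbouring enrichment by the caller sets peak width.

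Broad and narrower peaks, start sites of 45756 curated RefSeq transcripts (26180 genes), gene bodies, 16196 CpG islands on repeat-masked GRCm38 sequence (scored 17 per CpG) and core sequences were joined with Python 3.11.15, pandas 2.3.3 and scipy 1.17.1. Overlaps needed 1 bp. Intervals are exact 95% binomial or order-statistic intervals and cover counting error over peaks only. No test was made, since peaks of 1 library are not replicates. The members, gene lists and rules were chosen with earlier results of these data known. Named were the 10 widest members, the 5 with the highest replicate 1 q score, the 5 with most genes, the 5 widest away from start sites, 3 on each side of 3 kb, and of each gene list all members where 3 or fewer, otherwise the 4 widest (some of these are not reported here); other names were added after their values were seen and are given as such or as list contents. Overlap, start-site and CpG code passed 5 of 5 checks on simulated data, bedtools 2.31.1 pairs and direct counts. Alternatives are in the closing section.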

Additional observations from a re-analysis of the deposited data

How the results depend on the processing

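The 6 main values were recomputed under alternative settings, and none of the 47 values turned round: 11 stayed within a margin and 36 moved past it, the margin being 1.5 times for the number of peaks, 1 SD between replicates for the score ratio and the 95% interval of the main value for the others. No paired analysis was possible because the values come from no test and both replicates are of 1 condition. With a minimum width of 2.5 kb there were 3234 broad peaks, a median CpG ratio of 0.486 and 59.1% of length covered by replicate 2; with 4 kb these were 915, 0.401 and 54.5%, with 23.6% of members holding start sites of 2 or more genes and a replicate 2 score ratio of 1.26. Where replicate 2 had to cover 50%, 1210 members remained, with 86.3% at a promoter, 24.9% multi-gene, a CpG ratio of 0.511, a score ratio of 1.49 and 69.5% covered. With q scores above 60 in both lists 1414 members were left, and the other values were 88.1%, 25.5%, 0.493, 1.08 and 63.8%. Leaving out 1 replicate in turn gave 542 to 2074 broad peaks, 74.3 to 84.7% at a promoter, 19.1 to 19.9% multi-gene, CpG ratios of 0.433 to 0.564 and, from replicate 2 alone, a score ratio of 1.69; the 542 are those of replicate 2. The promoter share was 74.6% within 1 kb, 82.8% within 5 kb and 73.5% with a start site inside. The multi-gene share was 27.3% with all RefSeq and 31.4% with GENCODE M21 transcripts. The CpG ratio was 0.724 at the nearest start site and 0.496 in promoter members. The score ratio was 1.10 against narrower peaks of 1 to 3 kb, 1.01 against those with a central CpG ratio of at least 0.6, 1.38 with promoter members and 1.00 with promoter members against peaks of 2 to 3 kb. Replicate 2 peaks scoring above 60 covered 46.1% of a member. The settings for promoter members were added after seeing the data. The lists hold no read counts, so each value's dependence on depth was not tested.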
